A study of Mus musculus with 26 samples.

Results

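The genes described here are Otx2, Pou3f1, Zic2 and Zic5, 4 transcription factor genes that are associated with the formative state of pluripotency. They were chosen by symbol, and they are 4 of the 18193 genes that the arrays measured with a probe set of a single symbol. They account for 7 of the 34944 such probe sets. Each gene was read from its probe set with the highest mean over the 26 arrays, which was 1425926_a_at for Otx2, 1460038_at for Pou3f1, 1421301_at for Zic2 and 1456219_at for Zic5. Pou3f1 had 1 further probe set (1422068_at) and Zic5 had 2 (1456140_at and 1425666_at), which served as a check. In the RefSeq annotation of mouse assembly GRCm38.p6, Otx2, Zic2 and Zic5 lie on chromosome 14 and Pou3f1 lies on chromosome 4. Zic5 and Zic2 are neighbours there, with the long noncoding RNA gene 2610035F20Rik between them.

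Naive pluripotent cells resemble the epiblast of the early blastocyst and are held in that state by inhibition of MEK and GSK3 together with LIF. When this inhibition is lifted they move through a formative state, in which naive genes are shut down and enhancers used after implantation are taken up. Otx2 is a homeobox factor that helps to drive this change of state, and it opens or occupies many of those enhancers together with Oct4. Pou3f1 (Oct6) is a POU-domain factor of the postimplantation epiblast and of early neural progenitors. Zic2 and Zic5 are zinc finger factors of the Zic family. Zic2 also binds enhancers in embryonic stem cells, and both are known from the early neural plate.

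The study compared mouse cells with intact and with disrupted Prdm14, a PR-domain transcription regulator of the germ line and of naive pluripotency, on 26 Affymetrix arrays in 13 groups of 2. All lines were male and C57BL/6. Wild-type embryonic stem cells without genetic modification and Prdm14 knockout cells were each kept in 4 media on feeder cells of mouse embryonic fibroblasts. The first, called 2i, was N2B27 with LIF (1000 units per ml), PD0325901 at 0.4 uM to inhibit MEK and CHIR99021 at 3 uM to inhibit GSK3. The others were serum medium (20% serum with LIF at 1000 units per ml), serum medium without LIF, and serum medium with LIF and PD0325901 at 0.4 uM, each for 2 days. Knockout cells with the transgene pPyCAG-AGP14 were grown in the first 3 of these, 2i, serum and LIF-free serum, and are called AGP14 below after their label. pPyCAG is a vector for constitutive expression, and the labels do not spell out AGP14. Epiblast-like cells (EpiLC), sampled on days 2 and 3, had intact Prdm14 and the reporters Blimp1-mVenus and Stella-ECFP, which the other groups lack, so EpiLC differ from the stem cells in line as well as in state. The labels give no protocol for making EpiLC, do not say whether they stood on feeders, and do not say whether any line was 1 clone or whether replicates were separate cultures. The p-values below therefore rest on the spread between arrays alone, and that spread may be technical.

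Values are signals on a log scale as deposited. The base is not stated, and base 2 was inferred from the highest value of 13.89. Array medians lay between 4.86 and 5.01. Where arrays are said below to overlap or not, the share of all genes that do so was not counted. With 2 arrays a group, a lack of overlap describes those arrays and is not a test. Spike-ins, fibroblast markers and the targeted gene bear on several results. The spike-in control lys split the arrays into a set of 12 at 13.40 to 13.55 (wild type and knockout in 2i and with MEK inhibitor, and both EpiLC groups) and a set of 14 at 6.86 to 7.44 (all AGP14, all serum and all LIF-free arrays). The mean of 19 fibroblast markers, none of them at 0 in a whole group, was 7.92 to 8.51 on the arrays of 2i, 7.03 to 7.34 with MEK inhibitor, 6.01 to 6.54 in serum, 5.93 to 6.89 without LIF and 4.84 to 5.17 in EpiLC. Prdm14 itself read higher on the arrays labelled knockout (11.28 ± 0.06, SD, n = 2) than on wild-type arrays (9.18 ± 0.32) in 2i, against those labels. It did so too with MEK inhibitor (10.74 ± 0.19 against 9.26 ± 0.31, adjusted p = 0.0491), whereas in serum (5.94 ± 0.76 against 6.63 ± 1.06) and without LIF (3.63 ± 0.59 against 4.72 ± 0.63) it read lower without a call. On the AGP14 arrays Prdm14 read 9.20 ± 0.13 in 2i, 6.38 ± 0.06 in serum and 4.99 ± 0.18 without LIF, with no call against wild type. Against knockout it differed by -2.08 in 2i (adjusted p = 0.001), 0.44 in serum (adjusted p = 0.593) and 1.36 without LIF (adjusted p = 0.0326). The sources used here do not place the deletion or the transgene relative to the Prdm14 probe set. Every direction between genotypes is therefore between arrays as they are labelled.

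The RefSeq tables hold windows of the 250 bases before the annotated start for 4 Otx2 starts and 1 Zic5 start. They are searched here for binding sequences of selected transcription factors, and no sequence for factors regulated by ERK was among these. The motifs, on both strands, were the STAT site TTCNNNGAA, the TCF/LEF site CTTTGAT, the octamer ATGCAAAT, the OTX site TAATCC and a PRDM14 site, GGTCTCTAA. Only 1 of the 5 windows held any of them. It belongs to an Otx2 start at chr14:48665110-48665359 (GRCm38.p6, minus strand, printed 5′ to 3′ along the gene), and capitals mark the matches. The Zic5 window at chr14:122465659-122465908 (minus strand) had no match and is printed for comparison.
Otx2: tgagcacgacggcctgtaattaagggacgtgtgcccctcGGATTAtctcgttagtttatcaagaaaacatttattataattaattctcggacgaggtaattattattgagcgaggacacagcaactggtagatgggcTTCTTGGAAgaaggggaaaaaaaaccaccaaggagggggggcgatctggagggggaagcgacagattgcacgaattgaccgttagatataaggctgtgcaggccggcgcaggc
Zic5: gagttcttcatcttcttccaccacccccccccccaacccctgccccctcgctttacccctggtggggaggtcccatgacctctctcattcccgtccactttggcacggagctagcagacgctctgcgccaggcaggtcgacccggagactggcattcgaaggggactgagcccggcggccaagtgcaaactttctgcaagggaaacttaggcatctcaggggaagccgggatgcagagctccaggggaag
In the Otx2 window the OTX site, read as GGATTA on the printed strand, begins 211 bases before the start, and the STAT site, TTCTTGGAA, begins 113 bases before it. Of 32851 mouse windows of this length, 6.3% held an OTX site, 7.0% a STAT site, 3.2% the TCF/LEF site, 1.6% the octamer and 0.2% the PRDM14 site. These matches are letters in a window and not measured binding. CpG pairs numbered 14 in the printed Otx2 window, 6, 8 and 9 in the other Otx2 windows and 11 in the Zic5 window, against a median of 6.0 over all windows.

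Otx2 divided the 26 arrays into a low set, all of them in 2i, and a high set. In 2i it lay at 4.83 and 5.18 on the wild-type arrays, at 3.40 and 7.66 on the knockout arrays and at 4.69 and 4.70 on the AGP14 arrays. Outside 2i its lowest array was at 9.08, so no array of another medium or of EpiLC overlapped with an array in 2i. In serum it lay at 11.35 and 10.75 in wild type, 11.11 and 11.07 in knockout and 9.49 and 9.32 in AGP14. Without LIF the arrays read 11.60 and 11.43 in wild type, 11.12 and 11.30 in knockout and 10.76 and 10.83 in AGP14. The AGP14 arrays were the lowest of their medium in both, without overlap. With MEK inhibitor Otx2 lay at 10.37 and 9.08 in wild type and 9.72 and 9.92 in knockout, and in EpiLC at 10.69 and 10.79 on day 2 and 10.29 and 10.36 on day 3. Both sets lay below wild type and knockout without LIF. Its group means spanned 6.82, from AGP14 in 2i to wild type without LIF, and 99.9% of the genes had a smaller span. Of its 12 pairs of neighbours in the order of group means, 6 overlapped in their arrays. Such counts, here and for the genes below, were not made over all genes, so they do not set these genes apart.

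The knockout arrays in 2i disagreed on Otx2 by 4.26, the 6th largest gap of any gene between these arrays, on which 184 genes were over 2 apart. Because a single model estimated the spread of each gene over all 13 groups, this pair entered the standard error (SE) of Otx2, 0.75 for every difference between groups and 1.07 for the tests of genotype by medium. Results of Otx2 are therefore also given with both arrays left out of the model, an alternative added after the data were seen.

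Pou3f1 was likewise lowest in 2i, but its high groups were spread more widely. It lay at 6.89 and 6.88 in wild type, 5.69 and 6.09 in knockout and 6.10 and 6.07 in AGP14. In serum the wild-type arrays read 11.41 and 10.11, the knockout arrays 10.89 and 11.05 and the AGP14 arrays 8.97 and 8.48. Without LIF the values were 11.89 and 11.28, 11.34 and 11.64, and 9.71 and 9.40, in the same order. As for Otx2, AGP14 stood below both other genotypes in serum and without LIF, without overlap. With MEK inhibitor Pou3f1 lay at 9.84 and 7.84 in wild type, a gap of 2.00 between replicates, and at 8.32 and 8.12 in knockout. EpiLC held its highest array, with 12.00 and 11.89 on day 2, and read 10.53 and 10.50 on day 3. The group means spanned 6.05, more than for 99.8% of genes, and 7 of 12 neighbours in the order overlapped. The further probe set was at 9.84 ± 0.08 in EpiLC of day 2 and 8.32 ± 0.02 on day 3 (SD, n = 2), at most 8.26 on any stem cell array, and at most 4.47 on any array in 2i.

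Zic2 was measured at a high level on every array and varied far less. In 2i it read 8.64 and 8.54 in wild type, 9.21 and 8.89 in knockout and 8.90 and 8.52 in AGP14. In serum the values were 9.08 and 9.22, 9.32 and 8.93, and 9.43 and 9.45 in the same order, and without LIF 9.43 and 9.41, 9.65 and 9.26, and 9.75 and 9.84. The LIF-free AGP14 arrays were the highest of all. With MEK inhibitor Zic2 lay at 9.52 and 9.42 in wild type and 9.61 and 9.13 in knockout. In EpiLC it lay at 9.72 and 9.39 on day 2 and at 8.12 and 7.97 on day 3, and these day 3 arrays were the lowest of all 26. The group means spanned 1.76, more than for 75.3% of genes, and 10 of 12 neighbours overlapped.

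The group means of Zic5 had the same extremes as those of Zic2, AGP14 without LIF at the top and EpiLC of day 3 at the bottom. In 2i it read 9.71 and 9.40 in wild type, 9.70 and 9.40 in knockout and 9.21 and 9.15 in AGP14. In serum it read 9.90 and 9.94, 10.10 and 9.80, and 10.15 and 10.13 in the same order, and without LIF 10.24 and 10.42, 10.54 and 10.17, and 10.51 and 10.48. Every LIF-free array thus lay above every array of 2i and of EpiLC. With MEK inhibitor it lay at 10.33 and 9.87 in wild type and 10.25 and 9.75 in knockout, and in EpiLC at 9.88 and 9.86 on day 2 and 8.80 and 8.58 on day 3. The span of the group means was 1.81, more than for 76.9% of genes, and 7 of 12 neighbours overlapped.

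**Figure D1:**
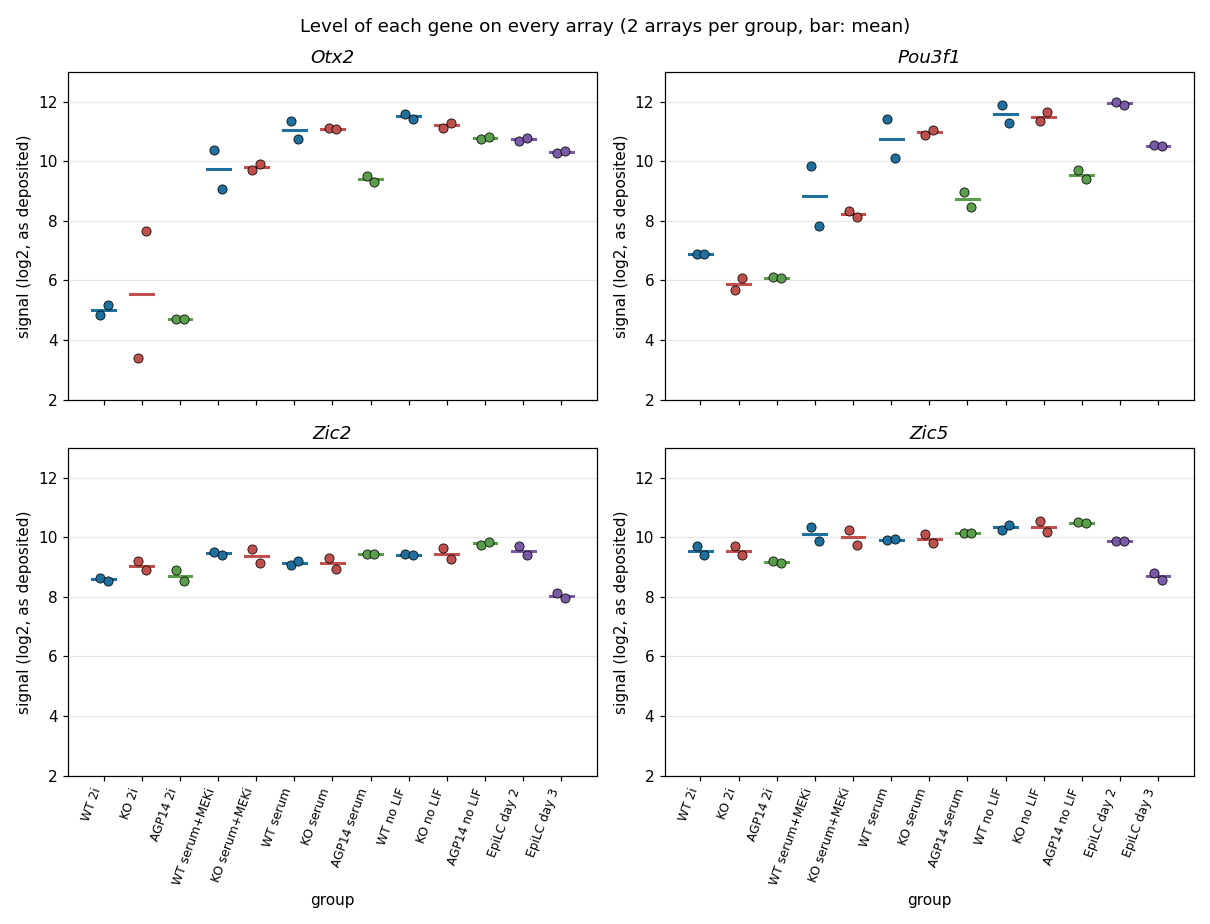
Deposited log2 signal (vertical axis) of Otx2, Pou3f1, Zic2 and Zic5 on each array (points) of the 13 groups (horizontal axis), with bars at the mean of the 2 arrays and colours for the genotype. Otx2 and Pou3f1 were lowest in 2i, the knockout arrays in 2i read 3.40 and 7.66 for Otx2, and Zic2 and Zic5 were lowest in EpiLC of day 3.

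Between day 2 and day 3 of the epiblast-like state, 3 of the 4 genes fell, while 17.6% of all genes were called in either direction (limma, Benjamini-Hochberg adjusted p under 0.05, used for every call below). Zic2 fell by 1.51 (SE 0.17, adjusted p = 5.73e-06) and Zic5 fell by 1.18 (SE 0.17, adjusted p = 7.04e-05). These are 2.85-fold and 2.27-fold decreases if the base is 2. Pou3f1 fell by 1.43 (SE 0.43, adjusted p = 0.0279), and its call was lost when any of the 4 EpiLC arrays was left out (adjusted p between 0.101 and 0.134) or the intensity trend was dropped (adjusted p = 0.0591). Otx2 differed by -0.42 (adjusted p = 0.79, 95% interval -2.0 to 1.17), although its day 3 arrays lay below its day 2 arrays without overlap. With the knockout arrays of 2i left out its adjusted p was 0.338, and with only the 4 EpiLC arrays in the model it was called (adjusted p = 0.00107). In such bulk samples fewer cells of a type and less RNA per cell cannot be told apart.

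Other genes of the formative and primed state moved in the same interval. Of 25 listed genes 10 fell and none rose, with a median of -0.46 against -0.01 over all genes. They included Tdgf1, a co-receptor of Nodal (-0.58, adjusted p = 1.07e-06), Sall2 (-0.80, adjusted p = 3.57e-05), the growth factor gene Fgf15 (-1.44, adjusted p = 0.000224) and Tcf15 (-0.70, adjusted p = 0.00374). Of 17 naive genes 4 rose, Klf5 among them (0.94, adjusted p = 9.4e-06), and 3 fell. Of 19 fibroblast markers 4 rose, led by Acta2 (1.74, adjusted p = 4.94e-08) and Tagln (2.18, adjusted p = 3.79e-05), both smooth muscle cytoskeletal genes, and 1 fell. Their part in the result was not tested. None of 13 neuroectoderm markers was called, and the mean of these 13 lay between 4.05 and 4.92 on all 26 arrays, with Rax listed at 0 on both arrays of EpiLC day 2.

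Against wild-type cells in 2i, EpiLC of day 2 had higher Otx2, Pou3f1 and Zic2, 3 of 4 genes where 38.3% of all genes were called. Otx2 rose by 5.74 (SE 0.75, adjusted p = 5.47e-06), the 4th largest rise of any gene, and Pou3f1 rose by 5.06 (SE 0.43, adjusted p = 2.66e-08), the 9th largest. Zic2 rose by 0.96 (SE 0.17, adjusted p = 0.000158). Zic5 was 0.32 higher, with arrays that did not overlap (adjusted p = 0.166, 95% interval -0.04 to 0.67). Its further probe sets were called here, at 0.61 (adjusted p = 0.0197) and 1.15 (adjusted p = 0.00296), so the 3 Zic5 probe sets differed in their call.

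On day 3 all 4 genes were called against wild type in 2i, Otx2 and Pou3f1 higher and both Zic genes lower, where 40.5% of all genes were called. Otx2 was 5.32 higher (SE 0.75, adjusted p = 1.16e-05) and Pou3f1 3.63 higher (SE 0.43, adjusted p = 1.56e-06). Zic2 fell by 0.55 (SE 0.17, adjusted p = 0.0159), a call lost without wild-type replicate 1 (adjusted p = 0.0854) or EpiLC day 3 replicate 2 (adjusted p = 0.109). Zic5 fell by 0.86 (SE 0.17, adjusted p = 0.000386) on its main probe set, but its further probe sets gave -0.48 (adjusted p = 0.0641) and 0.16 (adjusted p = 0.72). The direction of Zic5 on day 3 relative to 2i thus depended on the probe set.

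The surrounding gene groups differed broadly in the same comparisons, which share the wild-type arrays in 2i. On day 2, 16 of 25 formative and primed genes rose and 3 fell, with a median of 1.14 against -0.02 over all genes. They included Utf1 (2.76, adjusted p = 5.87e-13), Dnmt3b, a de novo DNA methyltransferase (3.76, adjusted p = 9.31e-10), and the kinase gene Pim2 (4.97, adjusted p = 1.95e-09). Of 17 naive genes 14 fell and none rose, with a median of -3.79, among them Klf2 (-5.40, adjusted p = 5.18e-15) and Nr5a2 (-5.86, adjusted p = 1.92e-11). Fibroblast markers fell as well, 15 of 19 with a median of -3.77, while 1 rose. Col3a1 differed by -8.96 (adjusted p = 2.09e-16). The part of fibroblast RNA in the differences of the 4 genes was not tested.

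EpiLC of day 2 were also set against wild-type stem cells that had spent 2 days without LIF, a comparison across the lys sets. None of the 4 genes was called (1 of 4 at an unadjusted p under 0.05), where 29.1% of all genes were. Pou3f1 was 0.36 higher in EpiLC (adjusted p = 0.606, 95% interval -0.55 to 1.27) and Zic2 0.14 higher (adjusted p = 0.627, interval -0.23 to 0.50), with overlapping arrays. Otx2 was lower by -0.78 (adjusted p = 0.509) and Zic5 by -0.46 (adjusted p = 0.0502), without overlap. With the knockout arrays of 2i left out of the model both were called, at adjusted p = 0.0341 for Otx2 and 0.0466 for Zic5, as they were with arrays of the compared groups alone (adjusted p = 0.00101 and 0.00857). In this comparison 10 of 19 fibroblast markers were lower in EpiLC and 1 was higher, and 11 of 17 naive genes were lower. The part of the fibroblast markers was not tested. The further probe set of Pou3f1 was 2.03 higher in EpiLC (adjusted p = 0.00336), where the main one was not called.

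Both Otx2 and Pou3f1 were higher in serum than in 2i in all 3 genotypes. Otx2 rose by 6.04 in wild type (SE 0.75, adjusted p = 4.54e-06), the largest rise of the 18193 genes and 66.0-fold if the base is 2. It rose by 5.56 in knockout (adjusted p = 1.05e-05) and by 4.71 in AGP14 (adjusted p = 0.00022), again the largest rise of any gene there. The knockout value was 3.43 without 2i replicate 1 and 7.69 without 2i replicate 2. Pou3f1 rose by 3.88 in wild type (SE 0.43, adjusted p = 1.32e-06), by 5.08 in knockout (adjusted p = 4.68e-08) and by 2.64 in AGP14 (adjusted p = 0.000281). On its further probe set the AGP14 difference was 0.80 and was not called (adjusted p = 0.321).

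On their main probe sets the Zic genes differed by less than 1 between serum and 2i. Zic2 rose by 0.56 in wild type (SE 0.17, adjusted p = 0.016) and by 0.73 in AGP14 (adjusted p = 0.00544), while in knockout it was 0.08 higher (adjusted p = 0.788, 95% interval -0.29 to 0.44). The wild-type call was lost without wild-type 2i replicate 2 (adjusted p = 0.0901) or serum replicate 2 (adjusted p = 0.0978), and the AGP14 call without AGP14 2i replicate 2 (adjusted p = 0.106). Zic5 rose by 0.96 in AGP14 (SE 0.17, adjusted p = 0.000552), and its further probe sets gave 1.23 (adjusted p = 0.000226) and 1.33 (adjusted p = 0.00269). It was 0.36 higher in wild type (adjusted p = 0.11) and 0.40 higher in knockout (adjusted p = 0.0779) without a call. With quantile normalization both were called (adjusted p = 0.0405 and 0.0173), as they were on the probe set 1456140_at (adjusted p = 0.0125 and 0.0277). On the probe set 1425666_at neither was called, at 0.70 in wild type (adjusted p = 0.068) and 0.64 in knockout (adjusted p = 0.0952). In all, 3 of 4 genes were called in wild type, 2 in knockout and 4 in AGP14, where 34.6%, 35.8% and 18.2% of all genes were called.

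The wild-type and knockout comparisons of serum with 2i ran across the lys sets, and that difference and the medium cannot be told apart there. The AGP14 comparison lay within a lys set, and all 4 genes rose in it. Fibroblast markers fell from 2i to serum, 14 of 19 in wild type, 14 in knockout and 13 in AGP14, where 1 rose. Their part was not tested. Formative and primed genes rose with serum, 17 of 25 in wild type, 14 in knockout and 16 in AGP14, while 2, 1 and 0 fell. Their medians were 0.78, 0.94 and 0.72 against -0.02, 0.01 and 0.00 over all genes. Tcf15, a helix-loop-helix factor gene, rose by 2.72, 2.93 and 2.78 (adjusted p at most 2.58e-09). Of 14 genes of the ERK response, which MEK activates, 10, 9 and 9 rose and 1, 1 and 0 fell. Those that rose included Dusp6, an ERK phosphatase (2.31, 2.39 and 1.18, adjusted p at most 8.35e-07), and the growth regulator Myc (3.55, 2.26 and 1.69, adjusted p at most 1.88e-05).

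Withdrawal of LIF from serum gave no call for any of the 4 genes in any genotype, 0 of 12 tests with limma, and 2 of 12 at an unadjusted p under 0.05. Few genes were called at all, 1.50% in wild type, 1.10% in knockout and 0.302% in AGP14. All 12 differences were above 0, where the median over all genes was -0.02 in wild type, 0.0 in knockout and 0.03 in AGP14. The share of all genes with such signs was not counted. The signs are not 12 independent results, since the genes share arrays and some vary together across groups. Zic5 was 0.41 higher in wild type (adjusted p = 0.285, 95% interval 0.05 to 0.77), 0.40 in knockout (adjusted p = 0.38) and 0.36 in AGP14 (adjusted p = 0.461). Zic2 was higher by 0.27, 0.33 and 0.36 and Pou3f1 by 0.82, 0.52 and 0.83 in the same order. Otx2 was 0.46 higher in wild type (interval -1.12 to 2.05), 0.12 in knockout (-1.46 to 1.70) and 1.39 in AGP14 (-0.19 to 2.97). The last had an adjusted p of 0.515, and 0.0341 with the knockout arrays of 2i left out. With arrays of the compared groups alone all 4 genes were called in AGP14, at adjusted p = 0.000205 for Otx2, 0.0313 for Pou3f1, 0.023 for Zic2 and 0.0125 for Zic5. In the same comparisons 13 of 17 naive genes fell in wild type and 11 in knockout, and 1 in AGP14. Klf5, a naive pluripotency factor gene, differed by -1.14, -1.34 and -0.80 (adjusted p at most 0.00367).

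In serum with the MEK inhibitor Pou3f1 was lower than in serum, and the Zic genes had no call. Pou3f1 fell by 1.92 in wild type (SE 0.43, adjusted p = 0.00288) and fell by 2.75 in knockout (adjusted p = 0.000128). The wild-type value ranged from -2.92 to -0.92 when single arrays were left out, and lost its call without serum replicate 1 (adjusted p = 0.0783) or inhibitor replicate 2 (adjusted p = 0.0863), as it did on its further probe set (-0.93, adjusted p = 0.186) and with arrays of the compared groups alone (adjusted p = 0.165). Otx2 was lower by -1.32 in wild type (adjusted p = 0.227, 95% interval -2.91 to 0.26) and by -1.27 in knockout (adjusted p = 0.256, -2.85 to 0.31), without overlap of arrays in either genotype. With the knockout arrays of 2i left out both were called, at adjusted p = 0.00111 and 0.00161. With arrays of the compared groups alone the knockout difference was called (adjusted p = 0.00322). Zic2 differed by 0.32 in wild type and 0.24 in knockout, and Zic5 by 0.18 and 0.05 (adjusted p at least 0.198). In all, 1 of 4 genes was called in each genotype, where 25.4% of all genes were called in wild type and 24.5% in knockout.

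These inhibitor comparisons ran across the lys sets, and that difference and the inhibitor cannot be told apart there. Fibroblast markers rose in them, 14 of 19 in wild type, where 1 fell, and 12 in knockout. The part of these markers was not tested. Formative and primed genes fell in part, 10 of 25 in wild type and 12 in knockout, with 3 that rose in each. Those that fell included Pim2 in wild type (-2.84, adjusted p = 1.06e-05) and Etv4, a target of ERK signalling, in knockout (-2.78, adjusted p = 1.23e-06). Of the 14 ERK response genes 8 fell and 2 rose in wild type, and 7 fell and 1 rose in knockout. Dusp6 differed by -0.90 (adjusted p = 9.55e-06) and -1.54 (adjusted p = 2.18e-08).

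Serum with the MEK inhibitor was finally set against 2i, a comparison of media that both held PD0325901 and LIF, within a lys set. In wild type all 4 genes rose, where 12.5% of all genes were called. Otx2 rose by 4.72 (SE 0.75, adjusted p = 0.000376), the largest rise of any gene, Pou3f1 by 1.96 (adjusted p = 0.0053), Zic2 by 0.88 (adjusted p = 0.00202) and Zic5 by 0.55 (adjusted p = 0.0426). In knockout 2 of 4 rose, where 13.2% were called: Otx2 by 4.29 (adjusted p = 0.000721), the 2nd largest rise, and Pou3f1 by 2.33 (adjusted p = 0.00118). This Otx2 value was 2.16 without knockout 2i replicate 1 and 6.42 without knockout 2i replicate 2. The Zic2 difference of 0.32 (adjusted p = 0.278, 95% interval -0.04 to 0.68) and the Zic5 difference of 0.45 (adjusted p = 0.0958, 0.09 to 0.81) were not called there.

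The Pou3f1 rise in wild type rested on inhibitor replicate 1, without which it was 0.95 (adjusted p = 0.114). The Zic5 call was lost without 2i replicate 2 (0.39, adjusted p = 0.282) or inhibitor replicate 1 (0.32, adjusted p = 0.399). With arrays of the compared groups alone, Otx2 in knockout lost its call (adjusted p = 0.173), as did Pou3f1 (adjusted p = 0.204) and Zic5 (adjusted p = 0.234) in wild type. In knockout the further probe set of Pou3f1 gave 1.46 (adjusted p = 0.0606). The naive list gave no call in wild type and 2 lower genes of 17 in knockout. Of the 25 formative and primed genes 9 and 11 rose, while 1 and 0 fell. Fibroblast markers fell, 14 of 19 and 13 of 19, while 2 and 1 rose.

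**Figure D2:**
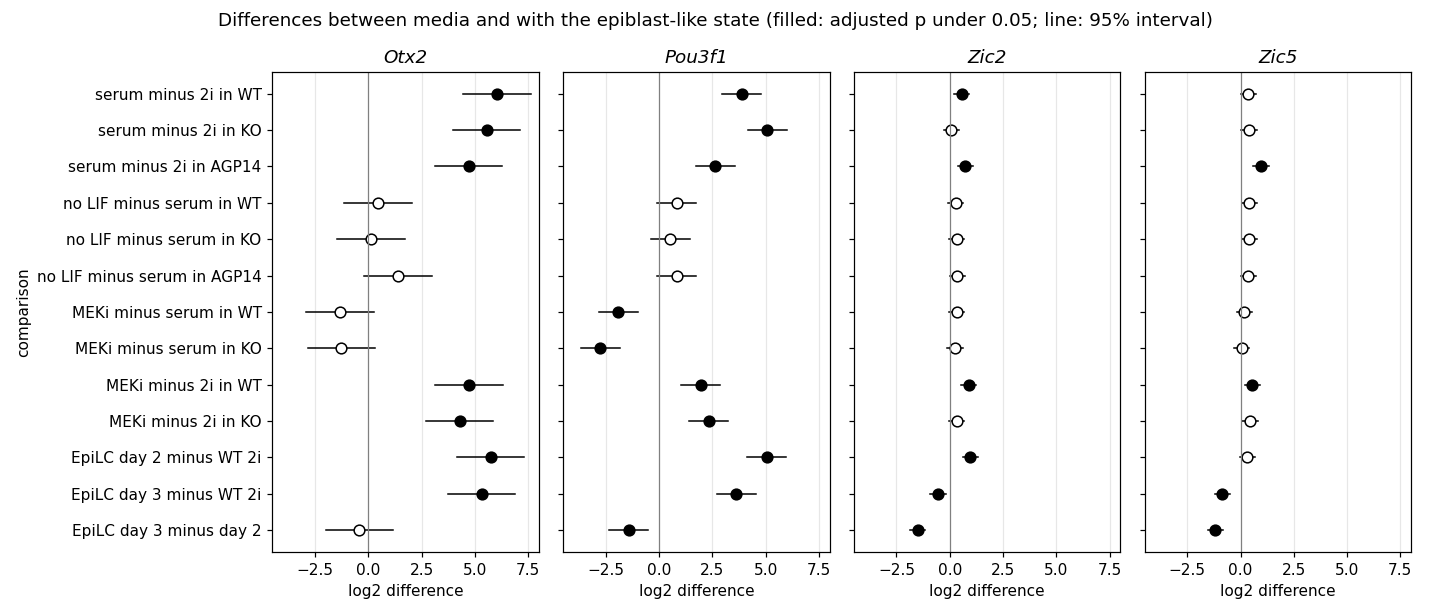
Log2 difference of each gene (horizontal axis) in 13 comparisons between media and with EpiLC (vertical axis). Points are differences between means of 2 arrays, lines are 95% intervals from the model over all 26 arrays, and filled points passed the adjusted p of 0.05: Otx2 and Pou3f1 rose in the 7 comparisons with 2i shown, and Zic2 and Zic5 fell from EpiLC day 2 to day 3.

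No call separated arrays labelled knockout from wild type in any medium. This is 0 of 16 tests with limma (2 of 16 at an unadjusted p under 0.05), where 9.15% of all genes were called in 2i, 4.17% in serum, 4.19% without LIF and 4.08% with MEK inhibitor. In 2i Pou3f1 differed by -1.0 (adjusted p = 0.185, 95% interval -1.91 to -0.08) and Zic2 by 0.46 (adjusted p = 0.112, 0.10 to 0.82). Their arrays did not overlap, but the share of all genes without overlap was not counted. Otx2 differed by 0.52 there (adjusted p = 0.779, -1.06 to 2.11). Its sign depended on which knockout array was used, with -1.60 from replicate 1 alone (adjusted p = 0.00533) and 2.65 from replicate 2 alone (adjusted p = 8.57e-05).

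Outside 2i the intervals of the Zic genes were the narrowest. Zic2 differed by -0.02 in serum (-0.39 to 0.34), 0.04 without LIF (-0.33 to 0.40) and -0.10 with MEK inhibitor (-0.46 to 0.26). The Zic5 differences were 0.03, 0.02 and -0.10, with bounds from -0.46 to 0.39. For Pou3f1 the differences were 0.21 (-0.70 to 1.12), -0.10 (-1.01 to 0.82) and -0.62 (-1.53 to 0.29), and for Otx2 0.04 (-1.54 to 1.62), -0.30 (-1.89 to 1.28) and 0.10 (-1.49 to 1.68). The last Pou3f1 difference became -1.62 and was called (adjusted p = 0.0161) without wild-type replicate 2.

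Whether the difference between the genotypes depended on the medium was tested as well, with 0 of 12 calls in limma, and 0 of 12 at an unadjusted p under 0.05. The share of all genes called was 2.97% for serum minus 2i, 0.00% for LIF-free minus serum and 0.231% for MEK inhibitor minus serum. For Pou3f1 the difference between knockout and wild type was 1.20 higher in serum than in 2i (SE 0.62, adjusted p = 0.366, 95% interval -0.09 to 2.5), and for Zic2 it was -0.48 (SE 0.24, adjusted p = 0.356, -1.0 to 0.03). The test against 2i ran across the lys sets.

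Cells with the AGP14 transgene had lower Pou3f1 than both other genotypes in serum and without LIF. Against knockout, Pou3f1 fell by 2.24 in serum (SE 0.43, adjusted p = 0.00234), and in the LIF-free medium it fell by 1.94 (adjusted p = 0.00508). Against wild type it fell by 2.04 in serum (adjusted p = 0.0107), and in the LIF-free medium it fell by 2.03 (adjusted p = 0.0061). These are 4.74-fold, 3.82-fold, 4.10-fold and 4.08-fold decreases if the base is 2. The comparisons with knockout and with wild type share the AGP14 arrays. All lay within a lys set.

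Single arrays bore on these calls. Against knockout in serum the adjusted p stayed at or below 0.0416 without any single array. Without LIF it reached 0.0592 without AGP14 replicate 2 and 0.0513 without knockout replicate 2. Against wild type it reached 0.117 in serum without AGP14 replicate 2 and 0.207 without wild-type replicate 1. It reached 0.0699 in serum with arrays of the compared groups alone. Without LIF it reached 0.0674 without AGP14 replicate 2 and 0.106 without wild-type replicate 1.

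Otx2 was lower in AGP14 cells too, by -1.68 against knockout (adjusted p = 0.183, 95% interval -3.27 to -0.10) and -1.64 against wild type in serum (adjusted p = 0.204, -3.23 to -0.06). These were not called with the SE of 0.75, and were called with the knockout arrays of 2i left out (adjusted p = 0.000412 and 0.00195). Without LIF Otx2 differed by -0.42 from knockout and by -0.72 from wild type (adjusted p = 0.804 and 0.634). With arrays of the compared groups alone all 4 Otx2 differences were called (adjusted p = 0.00094 and 0.0356 in serum, 0.0131 and 0.015 without LIF). Zic2 was higher in AGP14 by 0.29 to 0.38 in these 4 comparisons without a call (adjusted p at least 0.188), except against wild type without LIF with arrays of the compared groups alone (adjusted p = 0.049). Zic5 was 0.14 to 0.22 higher on its main probe set without a call, between -0.01 and 0.19 on 1456140_at and between -0.17 and -0.10 on 1425666_at, so its direction depended on the probe set.

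Of 4 genes 1 was thus called in each, where 10.5% of all genes were called against knockout and 6.96% against wild type in serum, and 13.3% and 10.7% without LIF. In 2i, across the lys sets, none was called against knockout (24.2% of all genes) or against wild type (25.4%), with 1 of 4 at an unadjusted p under 0.05 in each, Zic5 at -0.37 and -0.38. On its probe set 1456140_at Zic5 was called in both, at -0.65 (adjusted p = 0.0204) and -0.57 (adjusted p = 0.0421). On 1425666_at it was called against knockout (-0.86, adjusted p = 0.0297) but not against wild type (-0.74, adjusted p = 0.0596). With arrays of the compared groups alone Pou3f1 was called against wild type in 2i (-0.80, adjusted p = 0.0182).

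Naive genes were higher in AGP14 than in knockout, 12 of 17 in serum with a median of 1.09 and 14 of 17 without LIF with a median of 1.99, and none was lower. This list includes Prdm14, the targeted gene, which is among the 14 without LIF (1.36, adjusted p = 0.0326) and was not called in serum (0.44). Nr5a2, a nuclear receptor gene, was 2.56 and 4.43 higher (adjusted p = 1.92e-05 and 2.34e-08). Of 25 formative and primed genes 10 were lower and 2 higher in serum, and 7 were lower and 4 higher without LIF. Pim2 was lower by -2.46 and -2.73 (adjusted p = 0.000178 and 3.16e-05) and Wnt8a, a Wnt ligand, by -1.72 and -2.52 (adjusted p = 0.00176 and 2.88e-05), while Dact1 was 1.25 higher in serum (adjusted p = 0.0016). Fibroblast markers differed less against knockout, with 0 higher and 1 lower in serum and 2 higher and 1 lower without LIF. Against wild type 3 of 19 were higher in serum and 11 without LIF, and their part was not tested.

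**Figure D3:**
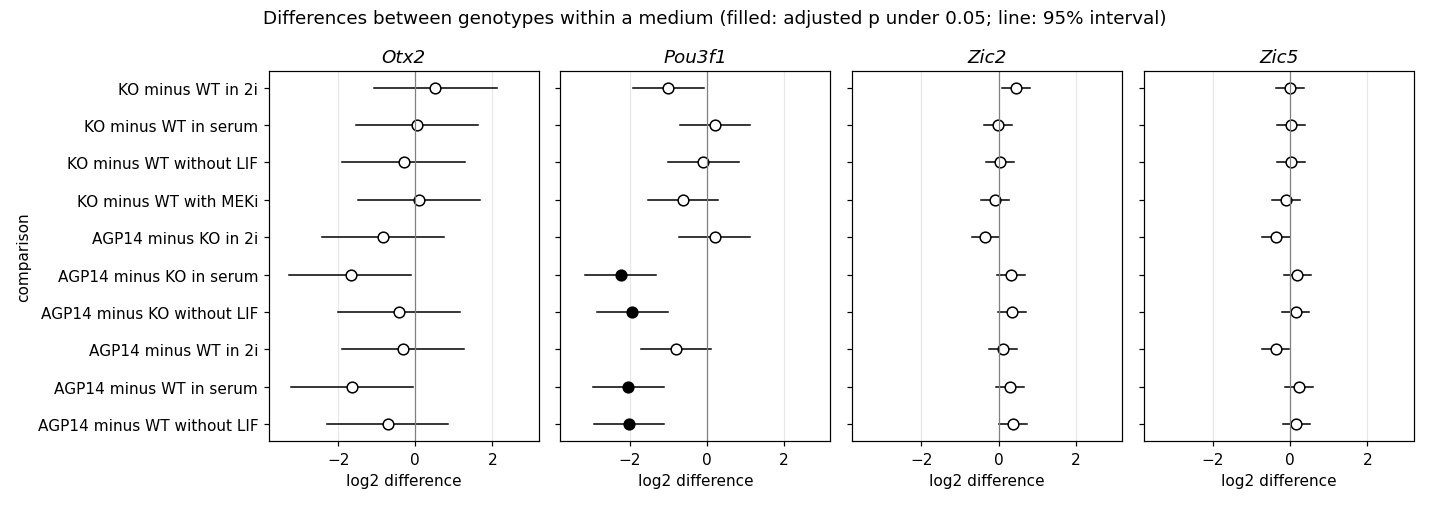
Log2 difference of each gene (horizontal axis) between genotypes within a medium (vertical axis), with points for differences between means of 2 arrays and lines for 95% intervals. Filled points passed the adjusted p of 0.05, which held for Pou3f1 in AGP14 against knockout and against wild type, in serum and without LIF, and for no comparison of knockout with wild type.

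Across the group means r among the 4 genes was highest within the pairs Otx2 with Pou3f1 and Zic2 with Zic5. Pearson's r over the 13 groups was 0.91 between Otx2 and Pou3f1 and 0.93 between Zic2 and Zic5. Between the pairs it was 0.47 (Otx2 and Zic2), 0.52 (Otx2 and Zic5), 0.31 (Pou3f1 and Zic2) and 0.37 (Pou3f1 and Zic5). Over the 11 stem cell groups, without either EpiLC group, these were 0.78, 0.88, 0.57 and 0.78, with 0.93 and 0.91 within the pairs. The pairs thus stood apart less there, and Otx2 with Zic5 came close to them. These correlations are descriptions of few groups that share arrays, lines and media.

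**Figure D4:**
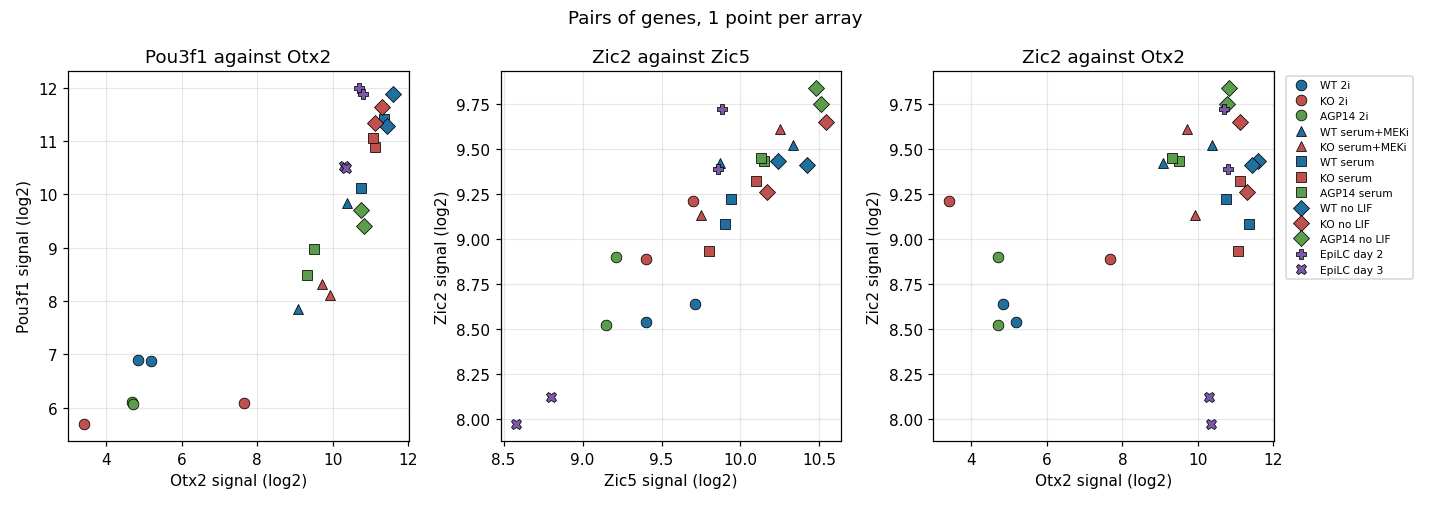
Log2 signal of 3 pairs of genes, 1 point per array, with colours for the genotype and marker shapes for the medium or EpiLC day. Pou3f1 increased with Otx2 and Zic2 with Zic5 over the arrays, whereas in the plot of Zic2 against Otx2 the EpiLC arrays of day 3 lay apart, at Zic2 of 8.12 and 7.97 with Otx2 of 10.29 and 10.36.

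Among 4349 genes above the median level and with group means spanning at least 1, those most like each gene over the 13 groups were found by Pearson's r. For Otx2 they were Slc7a7, an amino acid transporter subunit (r = 0.99), Klhl7 (0.984), 9930012K11Rik (0.975), Cemip2 (0.972) and the splicing factor gene Esrp1 (0.969). Slc7a7 ran from 7.68 ± 0.45 in wild type in 2i to 10.78 ± 0.35 in wild type without LIF (SD, n = 2), and its knockout mean in 2i was 8.46 ± 0.04, with no such gap between arrays as that of Otx2. For Pou3f1 they were Gm9564 and Hes6, a helix-loop-helix factor gene (both 0.979), Mtcl1 and Fgf5 (both 0.975) and Tmem158 (0.97). Fgf5, a growth factor gene used to mark the postimplantation epiblast, had wild-type means of 3.42 ± 0.54 in 2i, 7.82 ± 0.68 in serum and 9.69 ± 0.48 in the LIF-free medium, and lay in EpiLC at 9.66 ± 0.05 on day 2 and 8.28 ± 0.09 on day 3.

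For Zic2 the most alike were Qser1 (r = 0.932), Zic5 (0.928), Cttnbp2nl (0.912), Magi1 (0.902) and Spata13 (0.888). For Zic5 they were Cttnbp2nl (0.945), BC048403 and Zic2 (both 0.928), Qser1 (0.919) and Zfp638 (0.913). Each Zic gene was thus among the 5 most like the other, and Qser1 and Cttnbp2nl were in both sets. Otx2 and Pou3f1 were not among the 5 most like each other. Their r of 0.91 lay below that of the 5th gene for Otx2 (0.969) and for Pou3f1 (0.97). Qser1 lay at 8.43 ± 0.01 in EpiLC of day 2 and at 6.46 ± 0.04 on day 3, its lowest group.

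The other members of these families had low signals throughout. Group means of Otx1 and Crx were between 2.74 and 4.67, those of Pou3f2, Pou3f3 and Pou3f4 between 1.18 and 5.47, and those of Zic1 and Zic4 between 2.72 and 5.38. The highest of these on any array was 5.72 (Pou3f3), against array medians of 4.86 to 5.01. Among them Zic1 was called lower in EpiLC of day 2 (-0.90, adjusted p = 0.0421) and day 3 (-1.15, adjusted p = 0.0102) than in wild type in 2i, and Otx1 on day 3 (-1.88, adjusted p = 0.0108). This was not particular to EpiLC. Zic1 was also called lower than in 2i in serum (-1.51 in wild type, -1.30 in knockout) and with MEK inhibitor (-1.18 and -1.69). Otx1 was called lower with MEK inhibitor in wild type (-1.92). In knockout Crx (1.01) and Pou3f2 (1.18) were called higher in serum than in 2i.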

How the data were processed

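The deposited table holds 1 value per probe set and array on a log2 scale, a base inferred here; the authors' image analysis, background correction and normalization steps were not given in the sources used here. Biotin-labelled cRNA was made from total RNA by the Affymetrix one-cycle protocol, per the labels' protocols. Where several probe sets of the platform annotation named a gene alone, the brightest on average stood for it, which left 9160 probe sets unnamed and 932 with several symbols unused. A model in limma 3.58.1 (R 4.3.3) held 1 coefficient per group over 26 arrays (13 residual degrees of freedom, intensity trend), was tested on simulated data, and adjusted p-values over all 18193 genes of a comparison. Intervals used its 18.05 total degrees of freedom. Tables and plots used Python 3.11.15, pandas 2.3.3, numpy 2.4.6 and matplotlib 3.10.9. The number of arrays limits the precision.

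The 4 genes and the gene lists were chosen with earlier results of these data known. Named besides them were Prdm14, the 5 genes with the highest Pearson r, and up to 4 called genes with the smallest p per list; Rax and the family homologs are named as listed or low. Alternatives were quantile normalization, no trend, only the compared groups, the replicate number or line as a block, dim genes left out, means or further probe sets, single arrays left out, and, added after the data were seen, no knockout arrays of 2i.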

Additional observations from a re-analysis of the deposited data

How the results depend on the processing

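The counts of called genes were 3 of 4 for EpiLC day 3 against day 2, 7 of 12 for EpiLC against stem cells, 17 of 40 for media, 0 of 16 for knockout against wild type, 2 of 12 for AGP14 against knockout, 2 of 12 for AGP14 against wild type and 0 of 12 for genotype by medium. With arrays of the compared groups alone the AGP14 counts were 4 against knockout and 5 against wild type. The replicate number as a replicate block gave 1 call for knockout against wild type (Zic2 in 2i, adjusted p = 0.0333 in limma). The labels do not say that replicate numbers pair samples: deviations of same-numbered arrays correlated by 0.01 to 0.22 within a genotype (median 0.11) and by -0.06 to 0.05 between genotypes. This replicate block and the line as a random block also called Zic5 in serum minus 2i in wild type (0.039 and 0.0409) and in knockout (0.0236 and 0.0249), in MEK inhibitor minus 2i in knockout (0.0282 and 0.0266) and in EpiLC of day 2 minus wild type without LIF (0.0127 and 0.0287), all adjusted p in limma. With single arrays left out, these counts ranged from 0 to 1 for knockout against wild type, 1 to 3 for AGP14 against knockout, 1 to 2 for AGP14 against wild type and 0 to 1 for genotype by medium.

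The sign turned for Otx2 where knockout 2i arrays were left out singly, from -1.60 to 2.65 for knockout minus wild type in 2i, from -2.96 to 1.29 for AGP14 minus knockout in 2i, and from -2.62 to 1.65 for the genotype difference in serum minus 2i. It turned for Zic5 in EpiLC of day 3 against wild type in 2i on probe set 1425666_at (0.16). Of the single differences that kept their sign, calls were gained in 14 and lost in 5 with compared groups alone. They were gained in 7 with the replicate block and in 4 with the line as a random block. On further probe sets they were gained in 8 and lost in 5, and with means of probe sets gained in 3 and lost in 1. They were gained in 3 with quantile normalization, gained in 1 with dim genes left out and lost in 2 without the trend. Without the knockout arrays of 2i they were gained in 7. With single arrays left out calls were both gained and lost. The causes were not tested.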
